A study of Homo sapiens with 32 samples.

Results

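The 9 genes of the m6A writer machinery, METTL3, METTL14, METTL16, WTAP, VIRMA, ZC3H13, RBM15, RBM15B and CBLL1, were followed as methylated transcripts through 12 lists of m6A peaks. They were taken by name, and a peak was counted for a gene when it overlapped the RefSeq gene body by at least 1 base on either strand. They are 9 of the 19156 genes that held a peak in any list, out of 59098 RefSeq genes on chromosomes 1 to 22 and X. The peaks come from MeRIP-seq, in which RNA fragments are captured with an antibody against N6-methyladenosine (m6A), of RNA associated with chromatin. The human cell lines are OVCAR8 and SKOV3, of ovarian cancer, and LOVO and RKO, of colon adenocarcinoma. In each line, cells carrying a control shRNA (shControl, genotype field WT) were compared with cells carrying a METTL3 shRNA (shMETTL3). OVCAR8 and SKOV3 gave 2 lists per group, and LOVO and RKO gave 1 list per group, whose peak names cite replicate 1. The labels do not state separate cultures for the replicates, so p-values and the spread between 2 ovarian lists may reflect technical variation only. A peak shows where methylated RNA was captured above background. It does not measure how much of the transcript or protein was present, so these lists do not show how far METTL3 was reduced.

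m6A is placed on nascent RNA by a complex built around METTL3, the catalytic subunit, and METTL14, its partner, which shapes the RNA-binding surface. WTAP, VIRMA, ZC3H13 and CBLL1 (HAKAI) hold the regulatory part of the complex together, and RBM15 and RBM15B recruit it to bound RNAs. METTL16 is a separate methyltransferase with few substrates, best known for U6 snRNA and the MAT2A transcript. The marks in mRNA lie mostly in long internal exons and near stop codons, often within the letters GGACT. Transcripts of the writers can thus carry the mark that the writers make.

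Promoter windows from RefSeq (GRCh38.p14), 250 bases before to 50 after a start, were held for 8 of the 9 genes. Only RBM15, METTL16 and WTAP had a peak in the 250 bases before a listed start. The RBM15 and METTL16 windows are shown as examples. In RBM15 a peak passes the annotated start of the gene, and in METTL16 it lies wholly before it. A minus-strand peak at WTAP also passes the start of its gene, and that window is not shown. Capitals mark the bases covered in SKOV3 control replicate 1 for RBM15 (plus strand, chr1:110339127-110339376) and in SKOV3 control replicate 2 for METTL16 (plus strand, opposite to the gene, chr17:2511889-2512138).
RBM15: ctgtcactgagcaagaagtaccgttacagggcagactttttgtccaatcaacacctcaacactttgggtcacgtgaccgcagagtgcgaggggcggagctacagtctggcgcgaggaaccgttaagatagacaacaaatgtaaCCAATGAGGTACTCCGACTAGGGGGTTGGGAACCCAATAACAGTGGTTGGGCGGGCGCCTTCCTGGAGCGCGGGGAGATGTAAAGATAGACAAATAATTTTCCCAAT
METTL16: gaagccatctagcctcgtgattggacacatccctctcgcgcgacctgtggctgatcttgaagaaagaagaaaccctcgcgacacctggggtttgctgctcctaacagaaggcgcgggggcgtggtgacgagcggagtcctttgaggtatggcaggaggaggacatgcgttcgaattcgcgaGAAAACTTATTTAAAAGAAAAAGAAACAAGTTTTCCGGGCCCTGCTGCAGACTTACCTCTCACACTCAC
The RBM15 peak covered 107 and 110 of the bases before the start in the 2 SKOV3 control lists and none in the other 10 lists. In the METTL16 window a plus-strand peak covered 69 bases in SKOV3 control replicate 2 and 21 in the RKO control list. It lies outside the gene body and was not counted for METTL16. On the gene's strand the letters GGACT occur 0 times in the RBM15 window and 1 time in the METTL16 window, and 21.1% of 35116 RefSeq windows of this length hold them. On the opposite strand, shown for METTL16, they occur 0 times, and 21.3% of windows hold them. A match or its absence describes these letters only.

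Peaks per list ranged from 28237 to 37398 in the control lists. The OVCAR8-labelled knockdown lists were the smallest, with 15484 and 15744 peaks, and the other knockdown lists had 26178 to 34015. The background of the peak caller, read from the spacing of the deposited values, rises with the reads of a library. In the RKO knockdown list it was 0.483 times that of the control list, while the ratio was 0.982 for OVCAR8, 0.955 for SKOV3 and 1.15 for LOVO. By some values the ovarian knockdown lists lie nearer to the control lists of the other line than to those of their labelled line. The values point both ways, and whether labels were exchanged was not tested. Of the regions found in both SKOV3 knockdown lists, 36.5% had no peak in the SKOV3 control lists, but 8.81% had none in the OVCAR8 control lists. Of the regions found in both OVCAR8 knockdown lists, 25.9% had none in the OVCAR8 control lists, but 1.94% had none in the SKOV3 control lists. Of the OVCAR8 control regions, 57.8% had no peak in the OVCAR8-labelled knockdown lists and 14.6% none in the SKOV3-labelled ones. The SKOV3 control regions did not tell the pairings apart, at 44.4% and 44.3%. Among the markers, MUC16, an ovarian tumour antigen, held peaks in the OVCAR8 control and SKOV3-labelled knockdown lists only. PAX8 held peaks in these and the SKOV3 control lists but not in the OVCAR8-labelled knockdown lists. It also held peaks in LOVO and RKO control and none in LOVO and RKO knockdown. MSLN held peaks in every ovarian list, and KRT18 in every ovarian list but the SKOV3 control lists. Of 6 intestinal markers, 5 held peaks in LOVO control, 4 in LOVO knockdown, 1 (CDX2) in RKO control and 0 in RKO knockdown, which also held 0 of 3 epithelial markers. Of 3 mesenchymal markers, 2 held peaks in every ovarian and RKO list, with 23 peaks in RKO control and 27 in RKO knockdown, and 0 in LOVO. The blood markers PTPRC and CD3E held none in any list. In OVCAR8 control replicate 1 and each SKOV3 control list, 1 of 2 endothelial markers held a peak, and in the other lists none did. Lists stay in the groups their labels give. Many ovarian comparisons that change with the knockdown lists exchanged are given both ways, and the others only as labelled.

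Together the 9 genes held 19 and 22 peaks in the OVCAR8 control lists and 19 in each knockdown list, so the groups met at 19. In SKOV3 they held 29 and 31 peaks in control and 23 in each list labelled knockdown, with no overlap. The whole SKOV3 lists did not overlap either, with 28918 and 29102 peaks in control and 26178 and 26865 in labelled knockdown. LOVO gave 34 in control and 33 in knockdown, and RKO 47 and 29. By the labels, peaks in every knockdown list covered fewer bases than in the control lists of its line. The values were 11381 and 12079 bases against 9509 and 9631 in OVCAR8, and 15230 and 15481 against 13091 and 13188 in SKOV3. They were 16795 against 14592 in LOVO and 23587 against 14376 in RKO. Fewer covered bases in knockdown were general, with a median difference of -67.9 bases over 19156 genes. With the ovarian knockdown lists exchanged, the direction turned for OVCAR8 control, whose 11381 and 12079 bases lie below 13091 and 13188, and held for SKOV3 control. The RKO difference lies beside the lower background of its knockdown list, and the part of depth in it was not tested.

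**Figure D1:**
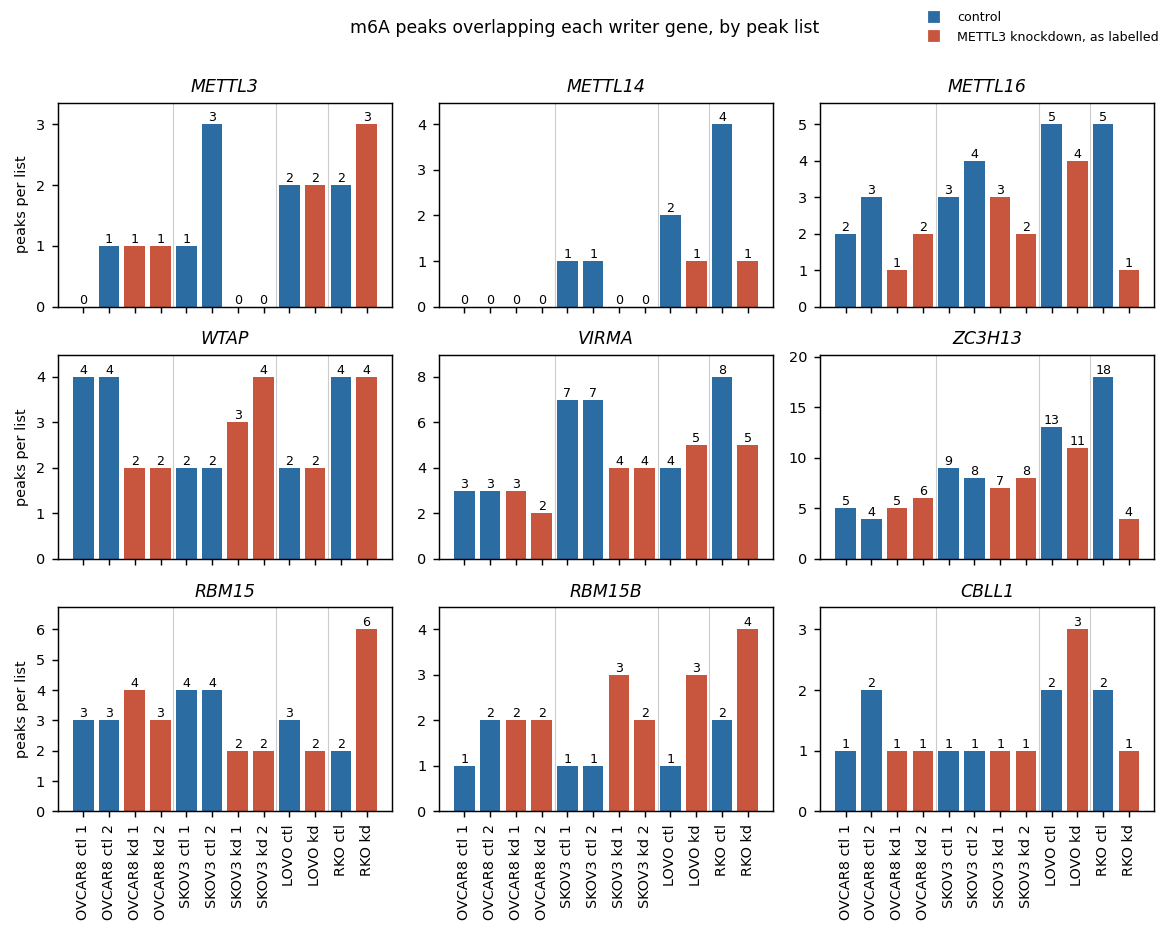
Peaks overlapping each writer gene (vertical axis, number of peaks) in each of the 12 lists (horizontal axis, ctl for control and kd for knockdown as labelled, 1 and 2 for replicates). Each bar is 1 list, so no error is drawn. ZC3H13 has the highest bar, 18 peaks in RKO control, against 4 in RKO knockdown, while METTL14 has no bar in 6 of the 12 lists.

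The genes differed widely in how much of the mark they showed. ZC3H13 held 98 peaks over the 12 lists, VIRMA 55, RBM15 38, METTL16 and WTAP 35 each, RBM15B 24, CBLL1 17, METTL3 16 and METTL14 10. The median over all genes with a peak was 10. These counts and the densities below take both strands. WTAP had 1 or 2 opposite-strand peaks in every list, RBM15 had 0 to 4, and METTL16 had none. The order of these genes by count thus depends on counting both strands. Per length the order changed. RBM15 had 4.34 control peaks per 10 kb of gene and RBM15B 2.01, followed by METTL3 with 1.14, WTAP with 1.01 and ZC3H13 with 0.967. CBLL1 had 0.856, VIRMA 0.811, METTL14 0.444 and METTL16 0.381, and the median of all genes with a peak was 0.372. Of the 9 genes, 7 had a peak in all 12 lists, against 22.6% of all genes with a peak. The exceptions were METTL3, with a peak in 9 lists, and METTL14, with a peak in 6.

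Same-strand peaks that touched across lists were merged into 56 sites. Of these, 12 were seen in all 12 lists, 14 in 1 list only, 16 only in control lists and 5 only in knockdown lists. Every control-only site was in the RKO control list, except a VIRMA site seen in SKOV3 control replicate 1. Each knockdown-only site was in the LOVO or the RKO knockdown list alone. Such sites were not counted over all genes, and in each line the control lists hold more peaks than the knockdown lists. The sites in all 12 lists were 3 in ZC3H13, 2 each in WTAP, VIRMA and RBM15, and 1 each in METTL16, RBM15B and CBLL1. METTL3 and METTL14 had none. The reference table used here gives no exons, so sites are placed by distance from the ends of the gene.

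METTL3 itself (chr14:21498138-21511340, minus strand) carried few peaks, and the lists labelled as its knockdown did not hold fewer in every line. The OVCAR8 control lists had 0 and 1 peaks, the OVCAR8 knockdown lists 1 each, the SKOV3 control lists 1 and 3 and the SKOV3 knockdown lists 0. LOVO had 2 in both conditions, and RKO had 2 in control and 3 in knockdown. Only in SKOV3 did the groups not overlap with the control higher, and with the knockdown lists exchanged they overlapped, at 1. The mean difference over lines was -0.125 peaks (exact permutation test within lines, two-sided, p = 1).

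These peaks fell at 3 places along METTL3. The one seen most often lies 7.79 kb from the start of the gene, in 9 lists. Its fold enrichment, the authors' own value, was 3.28 in the OVCAR8 control list that had it, 4.05 and 3.59 in OVCAR8 knockdown, and 9.13 and 8.32 in SKOV3 control. The OVCAR8-labelled knockdown lists lay above the OVCAR8 control here and below both SKOV3 control lists. A second place, 9.41 kb from the start, was present in 4 lists: SKOV3 control replicate 2, LOVO control and both RKO lists. The place nearest the start, 0.244 kb into the gene, appeared in SKOV3 control replicate 2 and in the LOVO and RKO knockdown lists. In RKO knockdown its score of 14.0 stood at percentile 76.7 of the list, above the 23.7 of the main METTL3 site there. In LOVO and RKO this start-side site was thus present in knockdown and not in control, with 1 list per group and no replicate check.

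METTL14 (chr4:118685392-118715430, plus strand), the partner of METTL3, had a peak in 6 lists. It had 0 in all 4 OVCAR8 lists, 1 in each SKOV3 control list and 0 in the SKOV3 knockdown lists. LOVO control had 2 and knockdown 1, and RKO control had 4 and knockdown 1. Knockdown lists were lower in SKOV3, LOVO and RKO, and OVCAR8 allowed no comparison. The mean difference was -1.25 peaks (exact permutation p = 0.0833, adjusted over 19156 genes p = 1). Most of these peaks fell on 1 site 25.1 kb from the start, 4.98 kb from the end of the gene, seen in 6 lists. In RKO this site covered 861 bases in control and 393 in knockdown, and in LOVO 259 and 141.

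METTL16 (chr17:2415715-2511888, minus strand) had a lower mean in knockdown in each line, with overlapping values in both ovarian lines. The OVCAR8 control lists had 2 and 3 peaks and the knockdown lists 1 and 2. The SKOV3 control lists had 3 and 4 and those labelled knockdown 3 and 2. LOVO had 5 and 4, and RKO 5 and 1. The mean difference was -1.75 peaks (exact permutation p = 0.0556, adjusted p = 1), lower in 4 of 4 lines as labelled. With the knockdown lists exchanged, OVCAR8 control had 2 and 3 beside 3 and 2, the same mean, and SKOV3 control had 3 and 4 beside 1 and 2, without overlap. Counted as covered bases the difference was -783 bases (exact permutation p = 0.0278, adjusted p = 0.670).

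The METTL16 sites absent from some lists lay toward the start of the gene. A site 4.44 kb from the end was present in all 12 lists and covered 855 to 1730 bases. LOVO control held 2 peaks in it, and 1 of them, chr17:2419305-2419578, had no LOVO knockdown peak. A site 0.349 kb from the start was present in all 6 control lists and in 4 of 6 knockdown lists. A site 34.0 kb from the start was present in 4 control lists (both of SKOV3, LOVO and RKO) and in no knockdown list. It was weak there, at percentiles 25.6 and 44.4 in SKOV3 control, 14.0 in LOVO control and 15.9 in RKO control. The fold or score of the site near the end, each on the scale of its own list, differed between groups in both directions. In SKOV3 control it had a fold of 18.0 and 16.4, and in the lists labelled SKOV3 knockdown 4.77 and 5.68. OVCAR8 control had 11.98 and 13.3, and OVCAR8-labelled knockdown 6.32 and 12.7. The SKOV3 groups did not overlap at this site, and the lists labelled SKOV3 knockdown also lay below the OVCAR8 control. In LOVO its score was 13.9 in control and 15.3 in knockdown, and in RKO 8.76 and 19.1. Its percentile within the list was 96.4 and 98.1 in LOVO and 87.8 and 87.4 in RKO. The median score of the list was 5.19 in RKO control and 8.41 in RKO knockdown, so the 2 RKO scores do not compare in size.

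**Figure D2:**
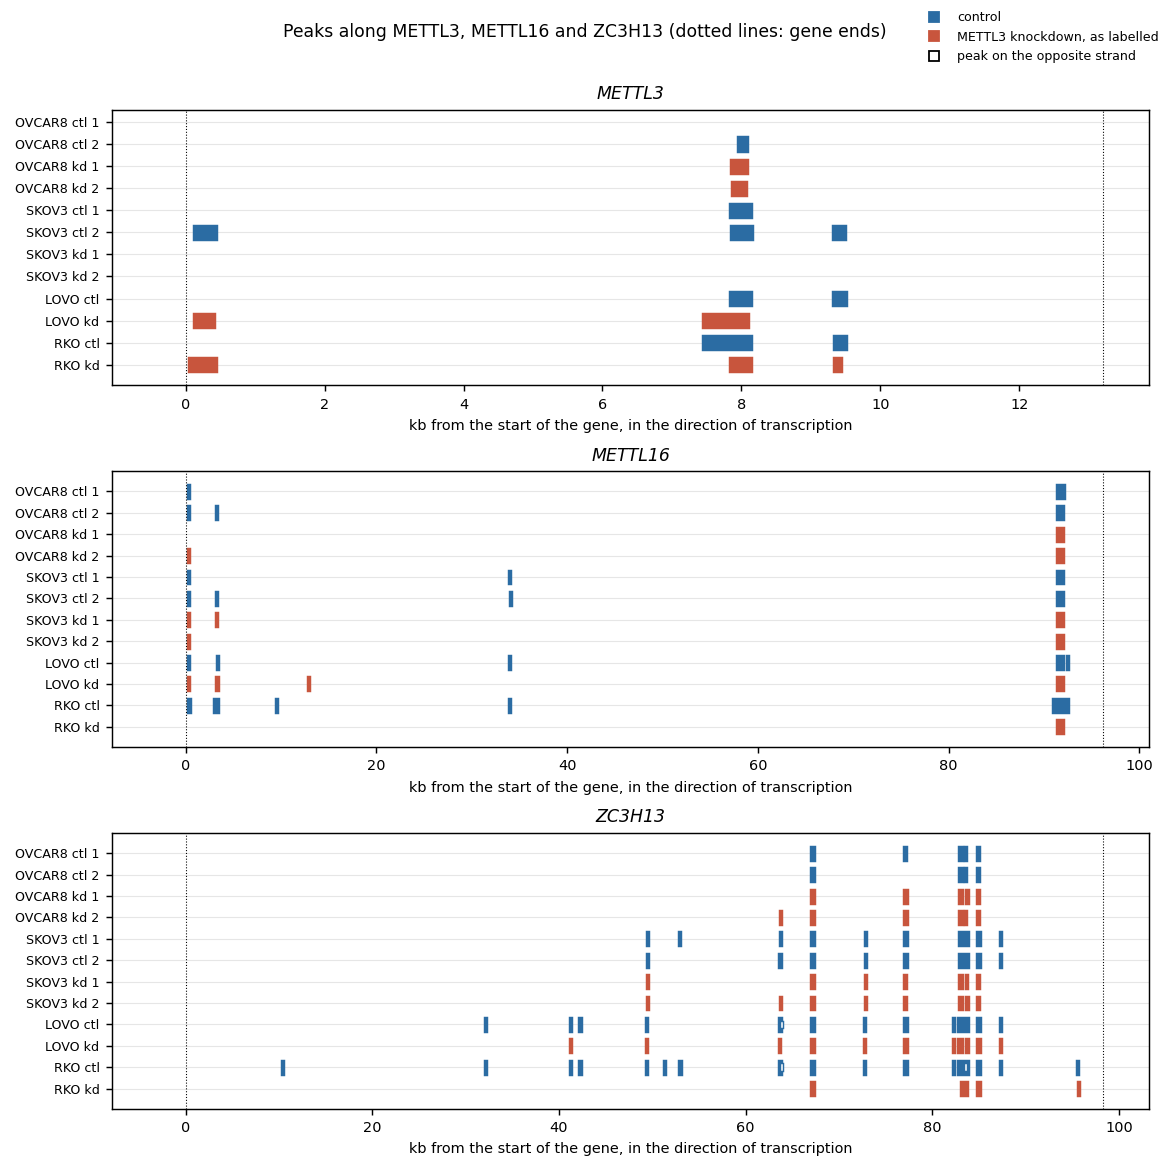
Positions of peaks along METTL3, METTL16 and ZC3H13 (horizontal axis, kb from the start of the gene; rows, the 12 lists as labelled; open boxes, peaks on the opposite strand; dotted lines, the ends of the gene). Very narrow boxes are widened to stay visible. ZC3H13 sites at 67.1, 83.3 and 85.0 kb recur in every list. Of the other sites that RKO control holds, RKO knockdown keeps only that at 95.6 kb. It lacks the one at 87.3 kb and all those nearer the start.

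Among the regulatory subunits, ZC3H13 (chr13:45954465-46052746, minus strand), the zinc finger protein that anchors the complex in the nucleus, had the most peaks of the members and, with RKO included, the largest mean difference in peak number. The OVCAR8 control lists held 5 and 4 peaks and the knockdown lists 5 and 6. The SKOV3 control lists held 9 and 8 and those labelled knockdown 7 and 8. LOVO had 13 in control and 11 in knockdown, and RKO had 18 and 4. The ovarian groups overlapped as labelled, and RKO alone differed by 14 peaks. With the knockdown lists exchanged they did not overlap, with OVCAR8 control at 5 and 4 below 7 and 8, and SKOV3 control at 9 and 8 above 5 and 6. The mean difference was -4.00 peaks as labelled (exact permutation p = 0.333, adjusted p = 1) and -0.667 without the RKO lists. Without RKO, RBM15B (1.33), METTL16 (-1) and VIRMA (-0.833) differed by more.

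ZC3H13 kept a core of 3 sites in all 12 lists, 67.1, 83.3 and 85.0 kb from the start of a gene of 98.3 kb. The first of these hardly varied in extent, from 523 to 568 bases. Its fold ranged from 6.63 in OVCAR8 control to 15.8 in SKOV3-labelled knockdown, and its percentile within each ovarian list from 92.6 to 99.4. In RKO, 14 of the 18 control regions had no knockdown peak, and the 4 that stayed were the 3 core sites and a site 95.6 kb from the start. Of the 18 sites of ZC3H13, 7 occurred in control lists only, all 7 of them in the RKO control list, and 0 in knockdown lists only.

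VIRMA, the large scaffold subunit, lies on chromosome 8, and its peaks were all on the minus strand. It held 3 peaks in each OVCAR8 control list and 3 and 2 in knockdown, 7 in each SKOV3 control list and 4 in each labelled knockdown, 4 and 5 in LOVO and 8 and 5 in RKO. SKOV3 and RKO were lower in knockdown and LOVO was higher by 1. The mean difference was -1.38 peaks (exact permutation p = 0.125, adjusted p = 1). The covered bases were fewer in knockdown in every line as labelled, with a mean difference of -990 bases (exact permutation p = 0.0139, the smallest that 144 arrangements can give, adjusted p = 0.466). By that measure 1021 of the 19156 genes had an unadjusted p under 0.05, 1017 of them lower in knockdown. With the ovarian knockdown lists exchanged, VIRMA covered 1001 and 1204 bases in OVCAR8 control beside 1110 and 1242, which overlap, and 2616 and 2528 in SKOV3 control beside 776 and 588.

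The widest VIRMA site shows how number and extent part. It covered 609 and 818 bases in OVCAR8 control against 380 and 367 in the labelled knockdown. The SKOV3 control lists covered 1109 and 1106 and those labelled knockdown 655 and 795. LOVO covered 1072 bases in control and 572 in knockdown, and RKO 1215 and 830. The LOVO knockdown and SKOV3-labelled knockdown lists cut it into 2 peaks each where the controls had 1, so they had more peaks over a shorter covered stretch. As labelled, all 6 knockdown lists covered fewer bases of it than the control lists of their own line. With the lists exchanged, the OVCAR8 control values of 609 and 818 overlap with 655 and 795.

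WTAP (chr6:159726693-159756319, plus strand), the adaptor that brings METTL3 and METTL14 to nuclear speckles, had alike numbers in lists of different ovarian labels. It held 4 peaks in each OVCAR8 control list and 3 and 4 in the lists labelled SKOV3 knockdown. It held 2 in each SKOV3 control list and 2 in each list labelled OVCAR8 knockdown. LOVO had 2 and 2, and RKO 4 and 4. By the labels, with both strands counted, WTAP was lower in OVCAR8 knockdown and higher in SKOV3 knockdown without overlap. With the knockdown lists exchanged neither line showed it. The mean difference was -0.125 peaks (exact permutation p = 1).

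Part of the WTAP count is not on the WTAP strand. At its start, a site on the minus strand was present in all 12 lists and covered 419 to 1042 bases. This site held 1 peak in each SKOV3 control list and 2 in each list labelled SKOV3 knockdown. On the WTAP strand alone the SKOV3 groups overlapped, at 1 peak. All 4 WTAP sites also lay in the body of SOD2, a mitochondrial superoxide dismutase gene that RefSeq starts on the minus strand. On the WTAP strand, a site 0.989 kb from the end was present in all 12 lists, with a fold of 3.56 to 7.39 in the ovarian lists. A site 21.7 kb from the start was present in both OVCAR8 control lists, in 1 list labelled SKOV3 knockdown and in both RKO lists.

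CBLL1 (chr7:107744142-107761667, plus strand), the RING finger protein HAKAI, had 1 to 3 peaks per list and differed mainly in the width of 1 site. OVCAR8 control had 1 and 2 peaks, LOVO 2 in control and 3 in knockdown, RKO 2 and 1, and every other list 1. Its site 2.95 kb from the end was present in all 12 lists. It covered 1019 and 1067 bases in OVCAR8 control and 297 and 374 in the lists labelled OVCAR8 knockdown. It covered 548 and 545 bases in SKOV3 control and 1018 and 1007 in the lists labelled SKOV3 knockdown. By the labels it was narrower in OVCAR8 knockdown and wider in SKOV3 knockdown. With the lists exchanged, the OVCAR8 control values of 1019 and 1067 stand beside 1018 and 1007, and the SKOV3 values of 548 and 545 beside 297 and 374. Its fold ran the same way, at 11.4 and 10.7 in OVCAR8 control and 9.66 and 9.96 in the SKOV3-labelled knockdown lists. The SKOV3 control lists had 2.65 and 4.24, beside 3.33 and 3.82 in the OVCAR8-labelled knockdown lists. The mean difference in CBLL1 peak number was -0.125 (exact permutation p = 1).

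**Figure D3:**
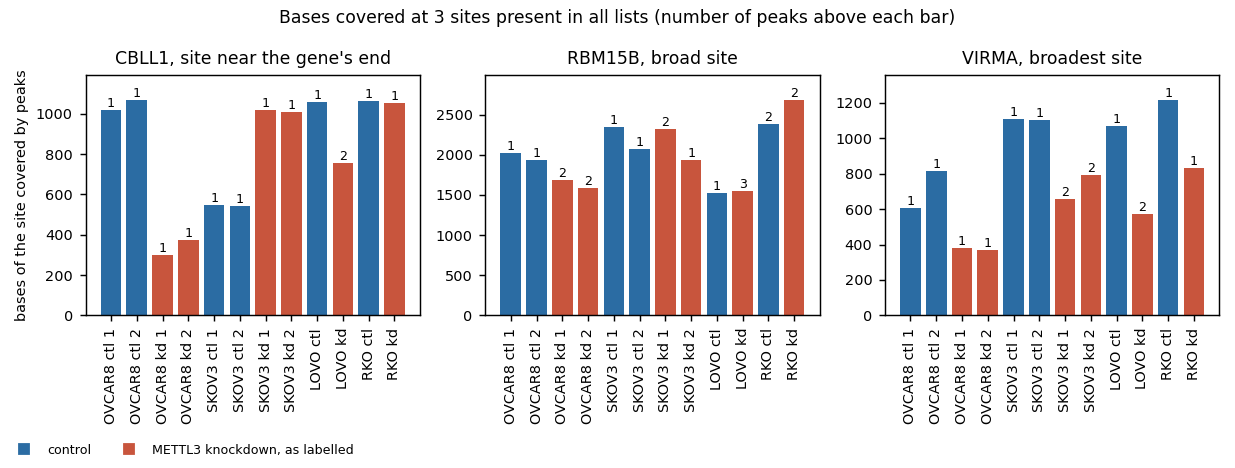
Bases covered by peaks (vertical axis) at the CBLL1 site near the end of the gene, the broad RBM15B site and the broadest VIRMA site in each of the 12 lists, with the number of peaks written above each bar. At the CBLL1 site the OVCAR8 control and SKOV3-labelled knockdown lists lie between 1007 and 1067 bases, and the SKOV3 control and OVCAR8-labelled knockdown lists between 297 and 548.

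RBM15 and RBM15B, the RNA-binding adaptors, are short genes covered by very broad peaks. RBM15 (chr1:110339377-110346677, plus strand) had 1 peak of 2781 to 3076 bases from its start onward in every list. In the ovarian lists it stood between percentiles 98.6 and 99.8 of strength, the rank of its −log10 p within its list. By score it stood at percentile 80.5 in LOVO control, 35.6 in LOVO knockdown, 94.0 in RKO control and 89.0 in RKO knockdown. The second RBM15 site runs across the end of the gene and covered 818 and 819 bases in OVCAR8 control and 417 and 153 in the lists labelled OVCAR8 knockdown. It covered 1749 to 1756 bases in all 4 SKOV3-labelled lists, 824 and 822 in LOVO, and 833 in RKO control against 1758 in RKO knockdown. At this site the ovarian knockdown lists lie nearer to the control lists of their labelled line than to those of the other line.

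The number of RBM15 peaks differed mainly on its opposite strand. It had 3 in each OVCAR8 control list and 4 and 3 in knockdown, 4 in each SKOV3 control list and 2 in each labelled knockdown, 3 and 2 in LOVO and 2 and 6 in RKO. In RKO knockdown 4 of the 6 peaks were on the minus strand and lay within the broad plus-strand peak, against 0 in RKO control. The SKOV3 control lists had 2 minus-strand peaks each and the lists labelled SKOV3 knockdown 0. On its own strand RBM15 had 2 peaks in 11 of the 12 lists. The mean difference over both strands was 0.375 peaks (exact permutation p = 0.958, adjusted p = 1). How well the libraries kept strands apart at strong peaks was not tested.

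RBM15B (chr3:51391285-51397908, plus strand) was the only member whose peak number was higher in knockdown in all 4 lines. The OVCAR8 control lists had 1 and 2 peaks and the knockdown lists 2 each. The SKOV3 control lists had 1 each and those labelled knockdown 3 and 2. LOVO had 1 in control and 3 in knockdown, and RKO had 2 and 4. Only the OVCAR8 groups overlapped. The mean difference was 1.5 peaks (exact permutation p = 0.0417, adjusted p = 1). Its unadjusted p was the only one under 0.05 among the members. Among all genes 1.50% had such a p with fewer peaks in knockdown and 0.0783% with more. The percentage of genes called after adjustment was 0, for 0 of 19156 genes.

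The covered stretch of RBM15B did not follow its peak number. Its broad site, 0.444 to 3.34 kb from the start, covered 2027 and 1935 bases in OVCAR8 control and 1688 and 1586 in knockdown, as 1 peak in control and 2 in knockdown. SKOV3 covered 2348 and 2067 in control and 2323 and 1933 in labelled knockdown. With the knockdown lists exchanged, the OVCAR8 control values overlap with 2323 and 1933, and both SKOV3 control values lie above 1688 and 1586. LOVO covered 1529 bases in control as 1 peak and 1550 in knockdown as 3 peaks, and RKO 2387 and 2678 as 2 peaks each. Over the whole gene the covered bases differed by 77.3 (exact permutation p = 0.681). The site stood between percentiles 85.6 and 99.7 of its list throughout.

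**Figure D4:**
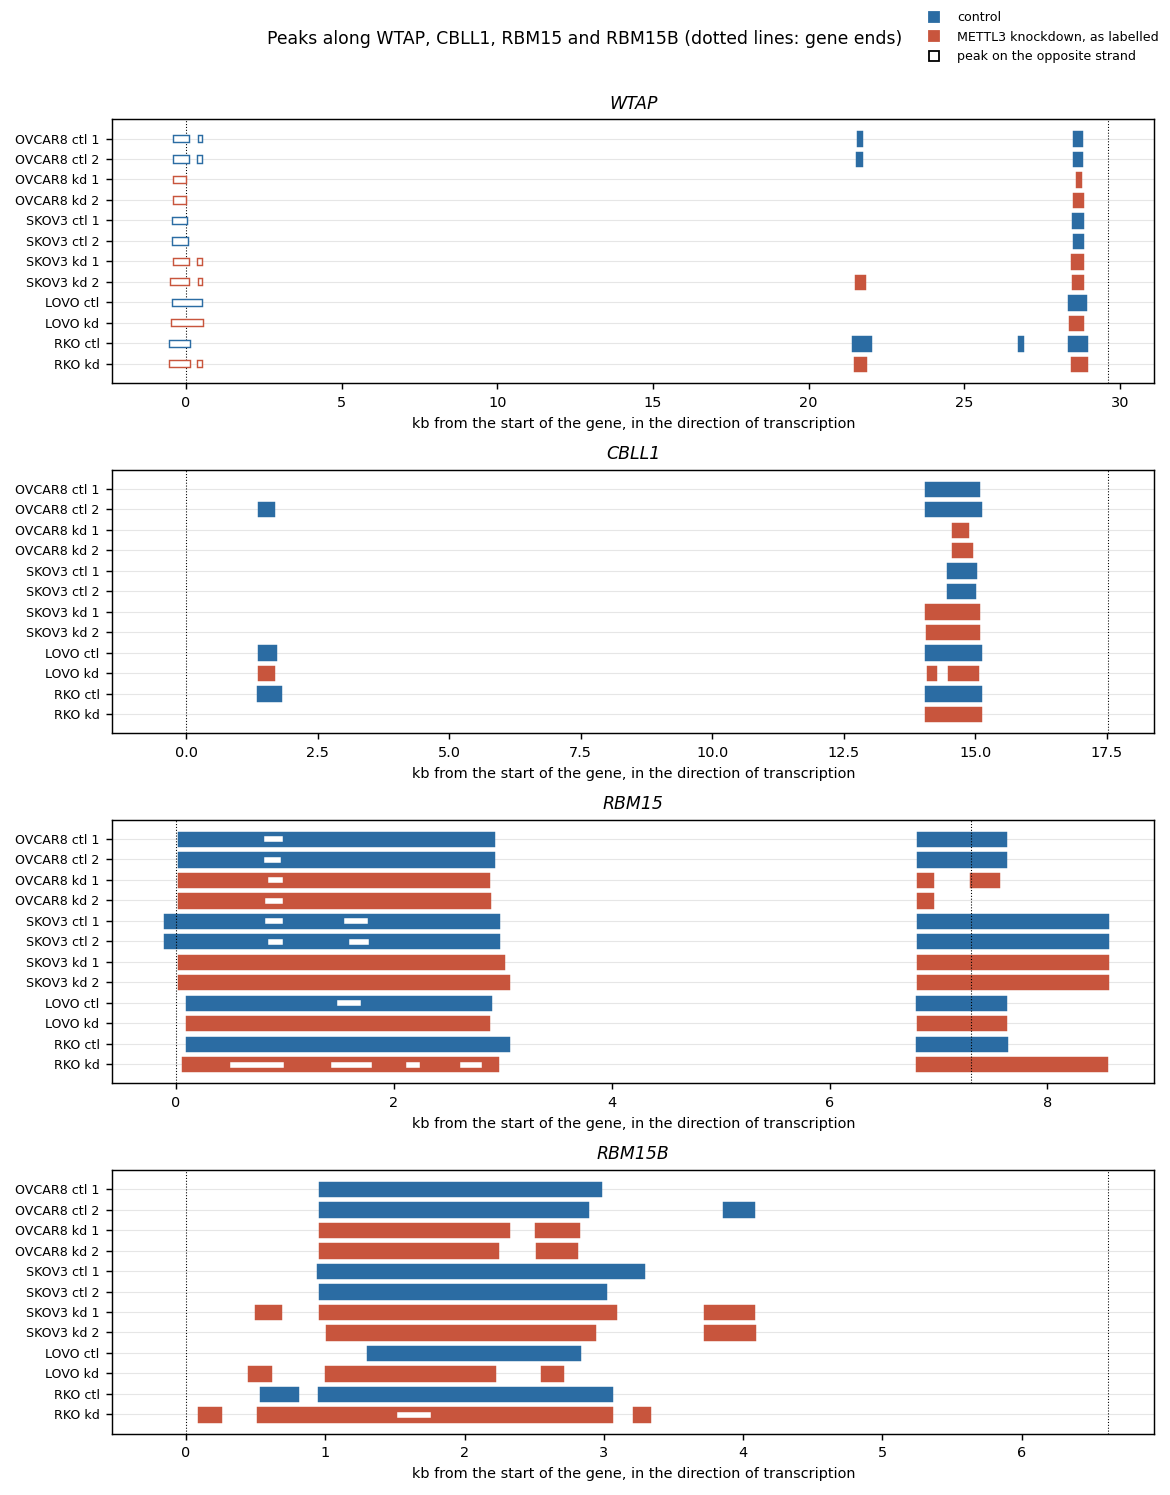
Positions of peaks along WTAP, CBLL1, RBM15 and RBM15B (horizontal axis, kb from the start of the gene; rows, the 12 lists as labelled; open or white boxes, peaks on the opposite strand; dotted lines, the ends of the gene). The RBM15B peak is whole in the OVCAR8 control lists and cut in 2 in the OVCAR8-labelled knockdown lists, and RKO knockdown shows 4 opposite-strand peaks inside the broad RBM15 peak.

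Genes were also counted as lower or higher in a line when all of its knockdown lists lay below or above all of its control lists. Members fell on both sides. In OVCAR8 1 of the 8 members with a peak was lower (WTAP) and 0 were higher, where 46.3% of all genes were lower and 15.3% higher. In SKOV3 4 of 9 were lower (METTL3, METTL14, VIRMA and RBM15) and 2 higher (WTAP and RBM15B), against 31.6% and 26.3% of genes. In LOVO 4 were lower (METTL14, METTL16, ZC3H13 and RBM15) and 3 higher (VIRMA, RBM15B and CBLL1), against 43.1% and 25.8%. In RKO 5 were lower (METTL14, METTL16, VIRMA, ZC3H13 and CBLL1) and 3 higher (METTL3, RBM15 and RBM15B), against 46.0% and 36.5%. With the ovarian knockdown lists exchanged, OVCAR8 control gave 1 lower member (RBM15) and 2 higher (VIRMA and ZC3H13), against 14.1% and 11.0% of genes. SKOV3 control then gave 4 lower (METTL14, VIRMA, ZC3H13 and METTL16) and 1 higher (RBM15B), against 49.4% and 3.48%. Peaks of both strands were counted. WTAP in SKOV3 as labelled, and RBM15 wherever it is named here, stood apart only through opposite-strand peaks. The median difference of the 9 genes as labelled was -0.125 peaks, and that of all genes with a peak was -0.25.

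Control regions are merged peaks present in every control list of a line, and a region was lost when no knockdown peak overlapped it by 1 base on its strand. Losses in writer genes were 3 of 18 in OVCAR8 (16.7%), where 57.8% of all control regions were lost. SKOV3 lost 9 of 27 (33.3%, all regions 44.4%), LOVO 9 of 34 (26.5%, all regions 37.8%) and RKO 26 of 47 (55.3%, all regions 60.1%). Regions of 1 gene share their transcript, so no test was made of these shares. The 3 regions lost in OVCAR8 were 2 in WTAP and 1 in VIRMA. In SKOV3 the 9 were 3 in VIRMA, 2 in RBM15 and 1 each in METTL3, METTL14, METTL16 and ZC3H13. In LOVO they were 3 in ZC3H13, 2 in METTL16 and 1 each in METTL3, METTL14, VIRMA and RBM15. In RKO they were 14 in ZC3H13, 4 in METTL16, 3 each in METTL14 and VIRMA and 1 each in WTAP and CBLL1. RBM15B lost none in any line. Some of these regions lay on the strand opposite to the gene, among them both lost from RBM15 in SKOV3. On the gene's strand only, losses were 2 of 15 in OVCAR8 and 7 of 24 in SKOV3. They were 7 of 31 in LOVO and 24 of 44 in RKO.

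Gained regions, those in knockdown with no control peak, were 0 of 18 in OVCAR8 (all regions 25.9%) and 2 of 21 in SKOV3 (9.52%, all regions 36.5%). They were 4 of 33 in LOVO (12.1%, all regions 26.9%) and 9 of 29 in RKO (31.0%, all regions 54.9%). Of the 9 in RKO, 4 were in RBM15, 3 in RBM15B and 1 each in METTL3 and WTAP. All 4 in RBM15, 1 of the 3 in RBM15B and the 1 in WTAP lay on the strand opposite to the gene. On the gene's strand only, RKO gains were 3 of 22 (13.6%). With the ovarian knockdown lists exchanged, losses were 1 of 18 from OVCAR8 control (5.56%, all regions 14.6%) and 9 of 27 from SKOV3 control (33.3%, all regions 44.3%). Gains were then 2 of 21 (9.52%, all regions 8.81%) and 0 of 18 (all regions 1.94%).

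**Figure D5:**
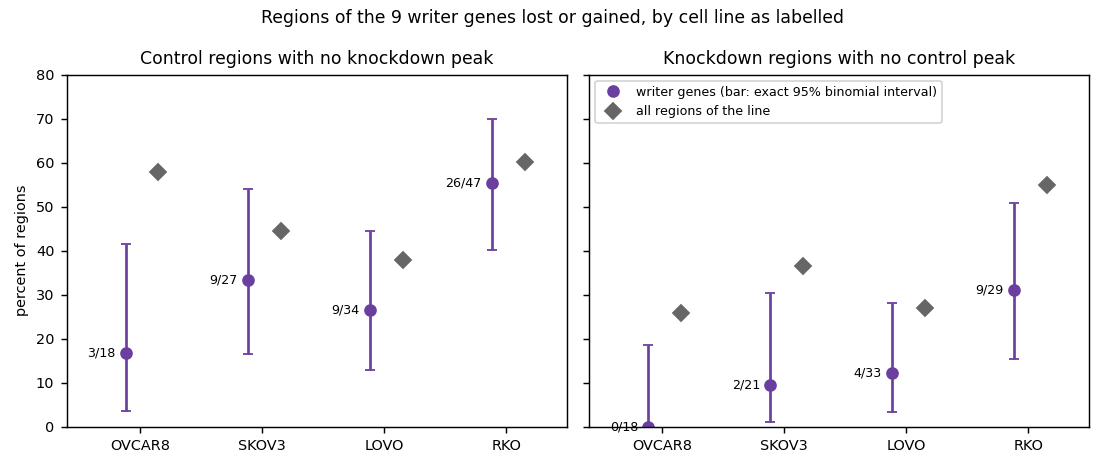
Percent of regions in the 9 writer genes (circles, with the count of lost or gained over all beside them) and of all regions (diamonds) that were lost, left, or gained, right, in each line as labelled. Bars are exact 95% binomial intervals, which cover counting error only and take regions as independent. In every line and both panels the circle lies below the diamond.

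The regions of the writer genes were stronger than most, and the strength of a region moved with its loss. Strength here is the mean percentile, within its control lists, of the authors' −log10 p in the ovarian lines and of their score in LOVO and RKO. The median control region of the writer genes stood at percentile 76.7 for OVCAR8, 78.4 for SKOV3, 79.2 for LOVO and 67.8 for RKO, against 55.0, 54.4, 49.8 and 49.97 for all regions. Among the stronger 50% of all regions, writer genes lost 1 of 14, 3 of 20, 2 of 26 and 14 of 30 in the same order of lines. All regions of that strength lost 42.1%, 32.0%, 20.4% and 47.0%. Among the weaker 50%, writer genes lost 2 of 4, 6 of 7, 7 of 8 and 12 of 17, and all regions lost 73.5%, 56.8%, 55.2% and 73.0%. In SKOV3 and LOVO, 13 of the 15 weaker writer regions were lost. Whether strength accounts for the lower loss in writer genes was not tested.

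Lists were also compared by the share of the 56 sites that they held in common. Replicates shared 76.2% of the sites seen in either list in OVCAR8 control, 83.3% in OVCAR8 knockdown, 81.8% in SKOV3 control and 85.7% in SKOV3 knockdown. LOVO control and knockdown shared 69.4%, and RKO control and knockdown 37.7%. RKO control shared 68.1% with LOVO control. OVCAR8 control replicate 1 shared 73.7% and 78.9% with the OVCAR8-labelled knockdown lists and 71.4% and 76.2% with the SKOV3-labelled ones. This share does not separate these pairings. Of the 16 and 17 sites of the OVCAR8-labelled knockdown lists, SKOV3 control replicate 1 held 16 and 17, and OVCAR8 control replicate 1 held 14 and 15. Of the 19 and 20 sites of the SKOV3-labelled ones, they held 17 and 18, and 15 and 16. The 2 control lists held 29 and 17 sites in the same order.

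The other genes of the m6A pathway were counted as a list of 17, of which 16 had a peak. Over the 12 lists 12 had a lower mean in knockdown and 4 a higher one, where 57.3% of all genes with a peak were lower and 31.0% higher. Their median was -0.375 peaks, and 0 had an unadjusted p under 0.05. YTHDC1, the nuclear m6A reader, was lower in SKOV3, LOVO and RKO, with 6 and 6 against 5 and 4, 8 against 6 and 9 against 4 peaks (exact permutation p = 0.0833, adjusted p = 1). FTO, an m6A demethylase, had 7 and 8 peaks in SKOV3 control and 2 in each labelled knockdown list, which is the number in all 4 OVCAR8 lists. IGF2BP2, a cytoplasmic reader, had 14 and 12 peaks in SKOV3 control and 0 and 1 in labelled knockdown, beside 0 and 1 in OVCAR8 control. PCIF1, the cap methyltransferase, was higher in SKOV3, LOVO and RKO, with 3 and 3 against 5 and 6, 2 against 3 and 2 against 3 peaks. With the ovarian knockdown lists exchanged, PCIF1 overlapped for SKOV3 control, at 3 and 3 beside 2 and 3. YTHDC1 was then higher than in OVCAR8 control, at 5 and 4 against 3 and 3, and stayed lower than in SKOV3 control.

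Other genes of that list that differed without overlap in at least 2 lines, as labelled, moved in mixed directions. YTHDC2, HNRNPA2B1 and IGF2BP1 were lower in 2 lines each. TRMT112, HNRNPC and FTO were lower in 2 lines and higher in 1, IGF2BP2 likewise, and IGF2BP3 was lower in 1 and higher in 2. YTHDF1 and YTHDF3 were lower in 1 and higher in 1. MAT2A, whose transcript METTL16 methylates, had 1 peak in every list but RKO knockdown, which had 0.

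The genes whose peak numbers ran most like those of METTL3 over the 12 lists, by Pearson r of log2(peaks + 1) among 8697 genes, included C19orf12 (r = 0.917) and MOK (0.913). Those most like ZC3H13 were SREK1IP1 (0.965), RBM6 (0.954) and OSBPL8 (0.952). RBM6 had 13 peaks in RKO control and 1 in RKO knockdown, and OSBPL8 12 and 1, beside 18 and 4 in ZC3H13. These values describe 12 lists that share lines, labels and depth.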

How the data were processed

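The members and gene lists were chosen with earlier results of these data known. For OVCAR8 and SKOV3 a list stands for 1 MeRIP library, and for LOVO and RKO for a whole group. The submitters' processing notes name MACS2 2.2.7.1, HISAT2 2.1.0, Bowtie2 2.4.2 and Trim Galore 0.6.6, without roles, and build hg38. The ovarian lists hold, as deposited, a fold enrichment (ratio), a score and p and q values as −log10. In LOVO and RKO the deposited score is unexplained, never lies below 3, and no source used here says how replicate 2 entered. Folds, scores and p values serve to describe or rank peaks within a list, and strand is as deposited. Where folds or scores of different lists stand side by side, they were not scaled to each other.

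Genes are those of RefSeq on GRCh38.p14. All 9 members are named, and other genes only where knockdown and control lists did not overlap in at least 2 lines, or as the 3 genes most like METTL3 and ZC3H13 among those with at least 12 peaks, of which 1 is not reported here. MAT2A, MUC16, PAX8, MSLN, KRT18 and CDX2 were named after their values were seen. Peak numbers were compared by a two-sided exact permutation test within lines (144 arrangements, smallest p 0.0139), Benjamini-Hochberg adjusted over 19156 genes, with Python 3.11.15, numpy 2.4.6, pandas 2.3.3, scipy 1.17.1 and matplotlib 3.10.9. The code was tested on simulated data. No source used here gives read totals. The background of the caller was the smallest that put at least 95% of the 40 most frequent values of a strand within 0.05 of whole reads, which assumes that fold and score are reads plus 1 over background plus 1. Alternatives were other countings, scalings and strata, lists left out, exchanged lists, and, chosen after seeing the data, bases covered by peaks.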

Additional observations from a re-analysis of the deposited data

Results flagged for a closer look

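In 7 comparisons of the lines, all lists of 1 line moved one way and all lists of the other moved the opposite way. Peaks of both strands were counted. None of these differences was tested, and each involves a line with 1 list per group or the ovarian lists whose labels are in doubt. The knockdown minus control difference in METTL3 peaks was -2 in SKOV3 and 1 in RKO, a gap of -3. For WTAP it was -2 in OVCAR8 and 1.5 in SKOV3, a gap of -3.5. For VIRMA it was -3 in SKOV3, 1 in LOVO and -3 in RKO, so that SKOV3 differed from LOVO by -4 and LOVO from RKO by 4. RBM15 gave -2 in SKOV3, -1 in LOVO and 4 in RKO, with gaps of -6 and -5 to RKO. For CBLL1 it was 1 in LOVO and -1 in RKO, a gap of 2.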

How the results depend on the processing

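No setting called a gene after adjustment. The number of genes with an unadjusted p under 0.05 was 302 as reported, 947 per 10000 peaks of the list (133 lower and 814 higher), 1021 by covered bases and 105 with the replicate block (64 arrangements, smallest p 0.0313). Replicate deviations correlated at 0.0098 in OVCAR8 and -0.0080 in SKOV3, so the numbers were not taken as pairs, and the replicate block left the 0 calls at 0. Per 10000 peaks the difference turned positive for METTL3 (0.0544), WTAP (0.176) and CBLL1 (0.0804), and RBM15B (0.672) exceeded ZC3H13 (-0.462) in size. Without the RKO lists it was -0.833 for RBM15 and 0.167 for CBLL1, and by covered bases RBM15 gave -105 bases. Leaving out each ovarian list moved METTL3 between -0.375 and 0.125, turning it positive without SKOV3 control replicate 2. Over 17 settings the unadjusted p of RBM15B ran from 0.0139 to 0.681 and that of METTL16 from 0.0278 to 0.264.

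For region shares, OVCAR8 gains were 22.2% at equal numbers of peaks per list. SKOV3 losses were 15% and LOVO losses 7.69% for the strongest 50% of control peaks against all knockdown peaks, and LOVO losses were 50% for the strongest 50% of each list. SKOV3 gains were 0% with the lists exchanged, and RKO gains 13.6% on the gene's strand only. Leaving out 1 list gave losses of 15.8% to 27.3% in OVCAR8 and 33.3% to 38.7% in SKOV3, and gains of 5.26% to 5.56% and 9.52% to 13.0%. The log2 ratio of knockdown to control peaks in writer genes was -0.11 in OVCAR8 and -0.38 in SKOV3. In OVCAR8 it was 0.043 for peaks in that gene only, 0.44 at equal numbers, -0.29 by bases and 0.17 exchanged. In SKOV3 it was -0.52, -0.28, -0.22 and -0.66, and -0.23 for the strongest 50%. The cause of these shifts was not tested.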
